A study of Sus scrofa with 96 samples.

Results

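Of the 46295 transcripts quantified in knee cartilage and synovium of Yucatan minipigs, 100 had the largest gain in cartilage after surgery on the anterior cruciate ligament (ACL) while their synovial level stayed within a narrow band. For each tissue, the difference was taken as log2(median CPM of all treated knees + 1) minus log2(median CPM of control knees + 1), where CPM stands for the estimated reads of a transcript scaled to a common library total. Transcripts over 300 bases (45547) with a treated cartilage median of 5 CPM or more (14283), a synovium difference between -0.5 and 0.5 (11928) and a control cartilage level within 4 log2 units of the control synovium level (11787) were ranked by their cartilage difference, and the first 100 are described here. The members were therefore chosen on the comparison of treated with control knees in both tissues. All values of that comparison are a description of the choice and support nothing about it. The choice also depended on the measure, because means in place of medians kept 41 of the 100 transcripts, TPM in place of CPM kept 57, and 18 were kept under all 6 alternative settings of the rule.

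Every animal had 1 ACL transected. The knee was then left untreated (ACLT, n = 11 knees here), reconstructed with a bone-patellar tendon-bone allograft (RECON, n = 12) or repaired with an extracellular matrix scaffold (REPAIR, n = 12), and tissue was taken at 52 weeks. Intact opposite knees of 12 of these adolescent animals served as controls (CON, n = 12), so the controls had no sham surgery and came from animals that carried an injured knee. A further knee, ACLT 12, was deposited but does not appear in the sample list of the study, and it took no part in the rule or the fits.

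Articular cartilage is a tissue of sparse chondrocytes in a matrix of type II collagen and proteoglycan, without vessels or nerves. Synovium lines the joint and holds fibroblasts, macrophages and vessels. After an ACL rupture both tissues can change for years, and post-traumatic osteoarthritis of the cartilage may follow. In bulk tissue, more cells of a type and more RNA per cell cannot be told apart. The values are per transcript, not per gene. A gene often yields several transcripts that share most of their sequence, and Salmon, the program used to quantify them, divides a read that matches several transcripts by estimated shares. A transcript can thus gain estimated reads because its gene was read more often or because the division among related transcripts moved. The transcripts are given by Ensembl identifier because none of the tables used here pairs these identifiers with gene names. For the same reason the tissue labels could not be checked against known marker genes.

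The 94 libraries held 7483049 to 21937198 estimated reads. Cartilage libraries were more dominated by few transcripts, with 23.8% to 43.6% of estimated reads in the 10 most abundant against 14.4% to 30.2% in synovium. The cartilage libraries also differed in how much synovium-restricted RNA they held. The summed level of 524 transcripts that were at least 5 CPM in CON synovium and more than 4 log2 units lower in CON cartilage ran from 951 to 1979 CPM in CON cartilage and from 725 to 8362 CPM in treated cartilage, where 16 of 35 libraries lay above the highest CON library. In CON synovium the same sum was 64109 to 85162 CPM. This list was chosen on the CON libraries, and its level is given beside the members that moved with it.

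The cartilage difference of the members ran from 0.62 to 5.30, with a median of 0.83. Their median treated cartilage level ranged from 5.08 to 526 CPM and their length from 363 to 11661 bases. The last members inside the limit were ENSSSCT00000057586.3 (0.63), ENSSSCT00000002938.5 (0.63) and ENSSSCT00000005209.5 (0.62). The first transcripts outside were ENSSSCT00000073778.2, ENSSSCT00000015790.5 and ENSSSCT00000078876.2, each at 0.62, so the limit marks no break in the ranking. The members were not cartilage transcripts in particular. In 69 of 100 the mean CPM was higher in CON synovium than in CON cartilage, against 75.1% of the 11687 other transcripts that met the rule's conditions.

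The members fell into 2 kinds by their values, a division made after the values were seen. In 48 members the estimate was under 1 read in at least 5 and at most 42 of the 47 cartilage libraries, while the other libraries of the same groups held several CPM. Such switching between absent and present was seen in 2.09% of the other transcripts that met the conditions. The remaining 52 members were read in nearly every cartilage library and are called steady members here. In the 48 switching members, 42% of CON cartilage values were at 0, against 28.6% of ACLT, 26.9% of RECON and 26.4% of REPAIR values. When only libraries with a read were compared, the median member of the switching kind was higher in treated cartilage by 0.39 on the log2 scale, and the median steady member by 0.75.

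**Figure D1:**
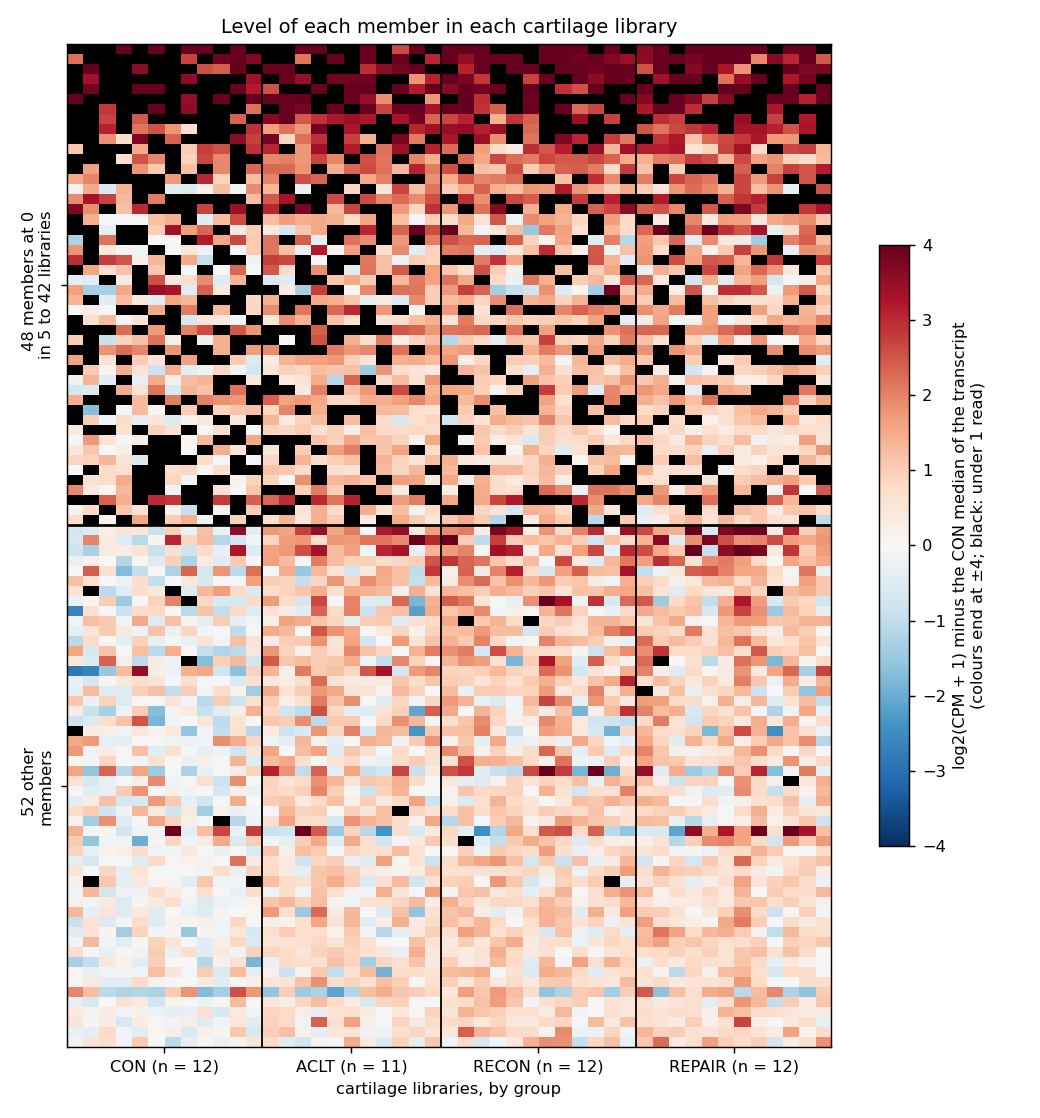
Each row is 1 of the 100 members and each column 1 cartilage library, grouped as CON (n = 12), ACLT (n = 11), RECON (n = 12) and REPAIR (n = 12); colour gives log2(CPM + 1) minus the transcript's CON median, and black marks values under 1 read. The upper 48 rows alternate between black and coloured cells in all 4 groups, with more black in CON, and the lower 52 rows are graded.

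All 12 members with the highest difference were of the switching kind, and 8 of them had a CON cartilage median of 0. The first, ENSSSCT00000072890.2, was at 0 in 7 of 12 CON and 14 of 35 treated cartilage libraries. Its CON values ran from 0 over a median of 0 to 174 CPM, and its treated values from 0 over a median of 38.3 to 139 CPM. The highest value was thus a CON library, no treated library exceeded it, and the difference of 5.30 rested on the share of libraries at 0. In synovium it was likewise at 0 in 8 of 12 CON and 22 of 35 treated libraries.

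ENSSSCT00000018225.4 (difference 3.83) was at 0 in 7 of 12 CON and 7 of 35 treated cartilage libraries. Its CON values reached 17.1 CPM, and its treated values had a median of 13.2 and a highest value of 34.8 CPM. Its median was 0 in ACLT, 17.5 in RECON and 14.5 CPM in REPAIR, so ACLT shared its median of 0 with CON. In synovium, where 1 of 47 libraries was at 0, the medians were 26.5 CPM in CON and 36.5 CPM in treated knees. 

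ENSSSCT00000007781.5 was at 0 in 9 of 12 CON libraries and reached 11.0 CPM there, while its treated median was 9.43 and its highest treated value 23.3 CPM. ENSSSCT00000064119.3 was at 0 in 9 of 12 CON libraries as well and reached 5.56 CPM, and 17 of 35 treated libraries exceeded that value. For ENSSSCT00000007781.5 this number was 15 and for ENSSSCT00000018225.4 it was 14. The treated group still overlapped CON in each, with 11 treated libraries of ENSSSCT00000007781.5 and 13 of ENSSSCT00000064119.3 at 0.

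The other 8 were ENSSSCT00000037243.3 (3.67), ENSSSCT00000039840.3 (2.93), ENSSSCT00000063865.3 (2.72), ENSSSCT00000048248.3 (2.71), ENSSSCT00000080506.1 (2.13), ENSSSCT00000040954.3 (1.93), ENSSSCT00000019141.5 (1.90) and ENSSSCT00000075543.2 (1.88). Their treated medians lay between 5.23 and 11.8 CPM, and their highest CON values between 8.88 and 39.2 CPM. In each the highest CON library was above the treated median. Not every treatment had a median above CON, since the RECON median was 0 for ENSSSCT00000063865.3 and the REPAIR median was 0 for ENSSSCT00000039840.3 and ENSSSCT00000048248.3.

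**Figure D2:**
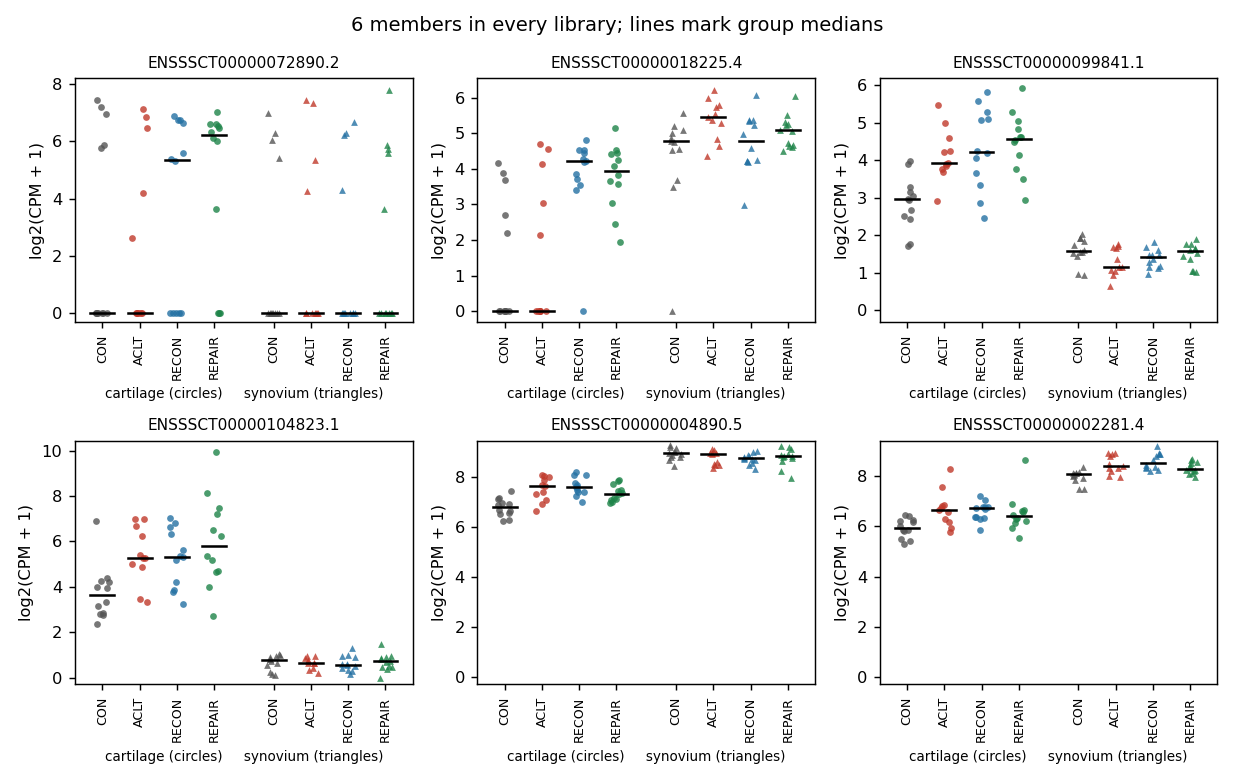
log2(CPM + 1) of 6 members in every library, cartilage as circles and synovium as triangles, by group (CON n = 12, ACLT n = 11, RECON n = 12, REPAIR n = 12 for each tissue); points are libraries and lines group medians. ENSSSCT00000072890.2 and ENSSSCT00000018225.4 alternate between 0 and several CPM. The other 4 are graded, with the CON cartilage median below most treated cartilage libraries. For ENSSSCT00000104823.1 the highest CON cartilage library lies above most treated ones.

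Whether a switching member was present in the cartilage of a knee said little about its synovium. For the 36 members that were at 0 in some but not nearly all libraries of both tissues, the association between presence in cartilage and in synovium over the 47 knees (phi, where 1 is full agreement and 0 none) had a median of 0.017 and ran from -0.19 to 0.35. The 156 other transcripts of this kind had a median of 0.011. ENSSSCT00000072890.2 was present in the cartilage alone in 18 knees, in the synovium alone in 9, in both in 8 and in neither in 12.

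The estimates themselves showed that reads were divided. An estimate that is not a whole number holds a share of reads that also match another transcript. The median member was whole in 21.3% of libraries, and 1 of the 100 (ENSSSCT00000064115.2) was whole in all. The median of the 11687 other transcripts that met the conditions was 1.06%, and 6 of them were whole in all. Divided reads were thus no particular trait of the members. An estimate of 0 counts as whole, and the median was 25% for the switching and 7.45% for the steady members. No member formed a whole sum with exactly 1 other transcript in every library in which both were not whole. A looser search, added after the data were seen, took runs of 2 to 12 neighbouring transcripts of the table that summed to a whole number in at least 50% of the libraries in which the member was not whole. It found such a read-sharing set for 50 of the 100 members, for 29 of the 48 switching and 21 of the 52 steady members, against 43.6% of the other transcripts that met the conditions.

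The member's share of its set was 7.94% in CON and 17.0% in treated cartilage for the median switching member, and 23.1% and 26.1% for the median steady member. For the 29 switching members with a set, the reads of the set added up had a median cartilage difference of 0.015 where the members themselves had 0.87, and 24 of the 29 sets lay within 0.2 of 0. A member that holds so little of its set moves the sum little, whatever the other transcripts do, so the sum does not show whether the reads moved within the set. The 21 steady members with a set shared 19 different sets. These had a median difference of 0.50, with 10 at 0.5 or more and 5 within 0.2 of 0. 1 set, that of ENSSSCT00000016195.5 and ENSSSCT00000074707.2, held a member of each kind. The other transcripts of the set, without the member, had a median difference of -0.06 for the switching and 0.39 for the steady members.

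The members with the highest difference that shared reads with exactly 1 other transcript were ENSSSCT00000003046.4, ENSSSCT00000069358.2, ENSSSCT00000055973.3, ENSSSCT00000003864.5 and ENSSSCT00000063881.3. ENSSSCT00000003864.5 had a difference that its set did not share. The member's difference was 1.05, and its partner was ENSSSCT00000042712.3. The pair together had a median of 12.6 CPM in CON and 13.8 CPM in treated cartilage, while the member's share of the pair was 21.5% in CON and 50.5% in treated cartilage. 

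ENSSSCT00000069358.2 (1.41) took 2.26% of its pair in CON and 5.25% in treated cartilage. The pair, with ENSSSCT00000001775.4, had a median of 76.6 CPM in CON and 112 CPM in treated cartilage, with 23 of 35 treated libraries above the highest CON library. Its synovium difference was 0.60 beside a cartilage difference of 0.55, so the sum of these reads was higher in treated knees in both tissues. ENSSSCT00000055973.3 (1.09) took 86.1% of its pair with ENSSSCT00000012579.5 in CON. The pair had 3.23 CPM in CON, 6.33 CPM in treated cartilage and 36.0 CPM in CON synovium.

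**Figure D3:**
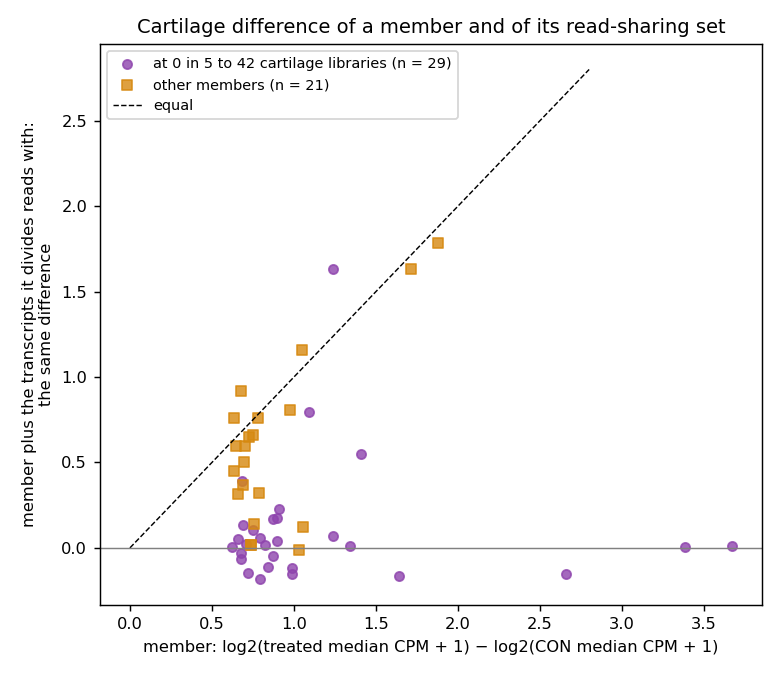
Cartilage difference of each member (horizontal axis, log2) against that of the member plus the transcripts it divides reads with (vertical axis, log2) for 29 switching and 21 steady members with a read-sharing set. On the dashed line the set differs as much as the member does, and at 0 on the vertical axis the set does not differ; 24 of the 29 switching members lie within 0.2 of 0.

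The set with the largest difference was the pair ENSSSCT00000003046.4 and ENSSSCT00000104823.1, both of them members. ENSSSCT00000104823.1 ran from 4.12 over a median of 11.8 to 118 CPM in CON cartilage and from 5.64 over 39.4 to 970.4 CPM in treated cartilage. ENSSSCT00000003046.4 ran from 3.88 over 8.13 to 103 CPM and from 5.00 over 32.5 to 813 CPM. The highest value of both came from the library REPAIR 7, with the next at 281 and 235 CPM. Summed, the pair had a median of 20.2 CPM in CON and 72.1 CPM in treated cartilage, a difference of 1.78. 1 CON library at 221 CPM was above all but 7 treated libraries. In synovium the pair was nearly absent, at a median of 0.88 CPM in CON and 0.76 CPM in treated knees.

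A set formed by ENSSSCT00000016195.5, ENSSSCT00000074707.2 and ENSSSCT00000084361.2, the first and the second of them members, was close to it and was picked out after its values were seen. Its sum had a median of 29.8 CPM in CON and 94.5 CPM in treated cartilage (difference 1.63), with 11.4 to 230.3 CPM in CON and 11.3 to 566 CPM in treated libraries. The ranges overlapped widely, as 4 of 35 treated libraries were above the highest CON library. In synovium the set had a median of 0.0614 CPM in CON and 0 in treated knees.

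The pair of ENSSSCT00000063881.3 with ENSSSCT00000095696.1 had a median of 6.75 CPM in CON and 16.3 CPM in treated cartilage (1.16). It was far higher in synovium, at 119 CPM in CON. Also picked after their values were seen were the pair ENSSSCT00000017441.4 and ENSSSCT00000048138.3, at 83.5 CPM in CON and 147 CPM in treated cartilage (0.81), and the pair ENSSSCT00000030128.3 and ENSSSCT00000057586.3, at 71.6 and 122 CPM (0.76). The first of these was nearly absent from synovium, at 2.57 CPM in CON, and the second was at 35.1 CPM there.

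Among the steady members, ENSSSCT00000099841.1 had the most treated libraries above the highest CON library, 22 of 35. It ran from 2.27 over a median of 6.76 to 14.9 CPM in CON cartilage and from 4.47 over 17.8 to 59.4 CPM in treated cartilage. Its median was 14.4 CPM in ACLT, 17.7 CPM in RECON and 22.8 CPM in REPAIR, all above CON, and its values were whole in 92.6% of libraries, so few of its reads were divided. In synovium it was low, at a median of 2.01 CPM in CON and 1.74 CPM in treated knees.

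ENSSSCT00000004890.5 was abundant in both tissues. It ran from 74.5 over a median of 110.5 to 176 CPM in CON cartilage and from 99.1 over 178 to 294 CPM in treated cartilage. Of the 35 treated libraries, 34 were above the CON median and 19 above the highest CON library. It was more abundant in synovium, at a median of 499.6 CPM in CON and 449.6 CPM in treated knees.

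ENSSSCT00000037131.3 (21 treated libraries above the highest CON library), ENSSSCT00000015036.5 (20) and ENSSSCT00000002281.4 (20) completed the 5 with the clearest separation. ENSSSCT00000037131.3 had a median of 106 CPM in CON and 187 CPM in treated cartilage, but its lowest values, 0 and 18.6 CPM, lay far from the rest. ENSSSCT00000015036.5 had 3.63 and 7.5 CPM, and its values were whole in 97.9% of libraries. ENSSSCT00000002281.4 had 60.1 and 93.8 CPM. At the other end, 19 of the 100 members had no treated library above the highest CON library, and in 5 members at least 18 treated libraries were. Of the 11687 other transcripts that met the conditions, 3325 had none and 22 had at least 18. The rule chose the members on treated against CON cartilage, so these counts are a description of the choice.

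Per length, the most abundant members in treated cartilage were ENSSSCT00000102025.1, ENSSSCT00000023744.4, ENSSSCT00000030128.3, ENSSSCT00000004955.5 and ENSSSCT00000057586.3, with treated medians of 6552, 549, 223, 109 and 95.6 TPM (Salmon's level per length). Their CON medians were 3529, 324, 129, 63.8 and 57.7 TPM. Of the 12 animals with both knees sequenced, the operated knee was higher in 1 for ENSSSCT00000023744.4 and in 6 for ENSSSCT00000102025.1. The operated knee was higher in 11 for ENSSSCT00000030128.3 and in 12 for ENSSSCT00000004955.5 and ENSSSCT00000057586.3. ENSSSCT00000102025.1 was the shortest member at 363 bases, and its CON libraries ran from 34.7 to 2943 CPM, which enclosed all treated values (106 to 2577 CPM). ENSSSCT00000004955.5, the most abundant in CPM, was narrower, at 241 to 575 CPM in CON and 328 to 1201 CPM in treated cartilage.

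The members with the highest CON synovium median were ENSSSCT00000004890.5, ENSSSCT00000102025.1, ENSSSCT00000052132.3 (318 CPM), ENSSSCT00000002281.4 (267 CPM) and ENSSSCT00000058660.3 (228 CPM). In CON cartilage the last 3 had medians of 24.0, 60.1 and 14 CPM, and in treated cartilage 41.1, 93.8 and 23.0 CPM.

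A fit over all transcripts (edgeR's quasi-likelihood test, 30447 transcripts tested, all 100 members among them) called 11 members higher in treated than in CON cartilage at an adjusted p under 0.05, where 0.627% of all transcripts were called higher. Since the rule used this comparison, the count is given without a reading. All 11 were steady members. The fitted log2 difference was 0.75 ± 0.11 (SE) for ENSSSCT00000004890.5, 1.71 ± 0.27 for ENSSSCT00000099841.1, 1.99 ± 0.43 for ENSSSCT00000104823.1 and 0.82 ± 0.17 for ENSSSCT00000002281.4. The median switching member had a fitted difference of 0.63 with a median standard error of 0.74, and the median steady member 0.73 with 0.32. Against CON, ACLT called 3 members (0.328% of all transcripts called higher), RECON 8 (0.762%) and REPAIR 9 (0.404%). When only cartilage libraries were fitted, the 3 counts were 0, 3 and 4, where 0%, 0.0624% and 0.0657% of all transcripts were called higher. In ACLT 16 members had an unadjusted p under 0.05, as had 2211 of the 30447 transcripts. Without the 16 treated cartilage libraries whose summed level of synovium-restricted transcripts exceeded that of every CON library, the counts were 0, 0 and 4. Of all transcripts 0.00657%, 0.0427% and 0.0591% were then called higher. At an unadjusted p under 0.05 there were 8 members in ACLT and 15 in RECON, and 1675 and 1888 of all transcripts. With the replicate number as a block, which marks no shared animal across treatments, the counts were 0, 1 and 0. Of all transcripts 0%, 0.0131% and 0% were then called higher. At an unadjusted p under 0.05 there were 20 members in ACLT and 34 in REPAIR, and 1981 and 2270 of all transcripts. The pooled count was sensitive to the fit too. It was 4 when only cartilage libraries were fitted (0.112% of all transcripts called higher), 2 when both knees of the 12 animals were compared with the animal as a replicate block (0.00985%), and 17 with DESeq2 (1.33%). ENSSSCT00000004890.5 and ENSSSCT00000099841.1 were the 2 that the paired fit called, by 0.79 and 1.74, and both were also among the 4.

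Not every member had a fitted gain in cartilage alone, but the share called in synovium was below that of all transcripts. In synovium the same fit called 6 members higher in treated than in CON knees and none lower, where 9.16% of all transcripts were called higher. At an unadjusted p under 0.05 there were 10 members, and 8700 of the 30447 transcripts. The 6 called were ENSSSCT00000002281.4, ENSSSCT00000015036.5, ENSSSCT00000046130.3, ENSSSCT00000100142.1, ENSSSCT00000071883.1 and ENSSSCT00000048103.3. ENSSSCT00000002281.4 was higher by 0.66 ± 0.17 in synovium and ENSSSCT00000015036.5 by 0.81 ± 0.22, beside their fitted gain in cartilage of 0.82 and 1.06. ENSSSCT00000046130.3 was at 0 in 11 of 12 CON and 21 of 35 treated synovium libraries, so its median was 0 in both. ENSSSCT00000100142.1 was near 0 in synovium too, at a median of 0 CPM in CON and 0.09 CPM in treated knees. The difference between the tissues in the change after surgery passed the test in 6 members, 5 with the larger change in cartilage, where 8.38% of all transcripts passed in either direction. With each knee as a replicate block it passed in 6 as well (7.7% of all transcripts), 4 of them shared. Without the 16 treated cartilage libraries of high synovium-restricted level it passed in 2 (7.68% of all transcripts), ENSSSCT00000099841.1 and ENSSSCT00000004890.5. The rule set the synovium band, so these counts are a description too.

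The 3 treatments were not compared by the rule, and here the members could be tested. None of the 100 members differed between RECON and ACLT, REPAIR and ACLT or REPAIR and RECON in cartilage at an adjusted p under 0.05 (edgeR's quasi-likelihood test), where 0.0657%, 0.0493% and 0.0854% of all transcripts were called. At an unadjusted p under 0.05 there were 5, 6 and 5 members, and 1468, 1796 and 2367 of the 30447 transcripts. DESeq2 also called 0 members in each (0.584%, 0.407% and 0.797% of all transcripts). The smallest adjusted p in cartilage was that of ENSSSCT00000104823.1, with a fitted difference of REPAIR minus RECON of 1.64 ± 0.47 (adjusted p = 0.135, edgeR) and medians of 57.6 and 38.9 CPM. REPAIR includes the library at 970.4 CPM. In synovium 0 members were called in any of the 3 comparisons (0.0263%, 0.00985% and 0.0821% of all transcripts). At an unadjusted p under 0.05 there were 3, 3 and 1 members, and 1495, 1171 and 1850 of the 30447 transcripts. DESeq2 called 1 member in RECON against ACLT (0.338% of all transcripts), 1 in REPAIR against ACLT (0.322%) and 0 in REPAIR against RECON (0.42%).

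The spread limits what these tests could show. For the median steady member the standard error of REPAIR minus RECON in cartilage was 0.37, and for the median switching member 0.86. In simulated data for this comparison on the same 30447 transcripts, 27 of 50 transcripts changed 1.5-fold were called, 37 of 50 changed 2-fold, 43 of 50 changed 3-fold and 46 of 50 changed 4-fold. The changed transcripts were drawn only from those with a mean over 5 CPM. The same simulated data gave 88 calls among unchanged transcripts. The simulation was not split by kind of member. Dispersion, edgeR's measure of spread between libraries, had a median of 2.55 in the switching and 0.36 in the steady members. The rates therefore do not give the recovery for switching members.

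The group medians of the single treatments are described without a test, since the rule used the pooled treated median and the CON median. The ACLT median was above CON in 95 members, the RECON median in 95 and the REPAIR median in 93, and all 3 were above CON in 83, against 19.8% of the other transcripts that met the conditions. Of the steady members 51 of 52 had all 3 above CON, and of the switching members 32 of 48. The highest of the 3 medians was that of ACLT in 24 members, RECON in 41 and REPAIR in 35, against 46.1%, 40.6% and 13.4% of the other transcripts. This contrast depended on the scaling. With TMM factors, which adjust for the few dominant transcripts, REPAIR was highest in 41 members and in 37.9% of the others, RECON in 40 and in 30%, and ACLT in 19 and in 32.1%.

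Knee ACLT 12 was not among the libraries that the rule used. Its cartilage library stood apart from the other 47 in effective length, the length Salmon counts after allowing for fragment size. The median gap between length and effective length was 516 bases there and 216 to 419 in the others. Its 10 most abundant transcripts took 40.9% of the reads, within the range of the others. The rule did choose the members for a low CON median, so a library outside the choice is likely to lie above that median in more than 50 of the 100, and nothing is read from the counts. In this library 69 of the 100 members were above their CON median, against 32.2% of the other transcripts that met the conditions. Among the steady members the count was 43 of 52, and among the switching members 26 of 48. Members above the highest CON library numbered 12, against 4.52% of the others, and 21 members were at 0. In its synovium library 48 members were above the CON median, against 28.5% of the others. With TMM factors the cartilage count was 72, against 49.4%, and the synovium count 58, against 48.4%. This is 1 knee, and no test was possible.

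Over the treated libraries that the rule had used, between 56 and 93 members were above their CON median in cartilage, with medians of 71 in ACLT, 75 in RECON and 79 in REPAIR. In CON cartilage it was 41 to 59. In synovium it was 28 to 60 members in treated and 36 to 58 in CON knees.

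**Figure D4:**
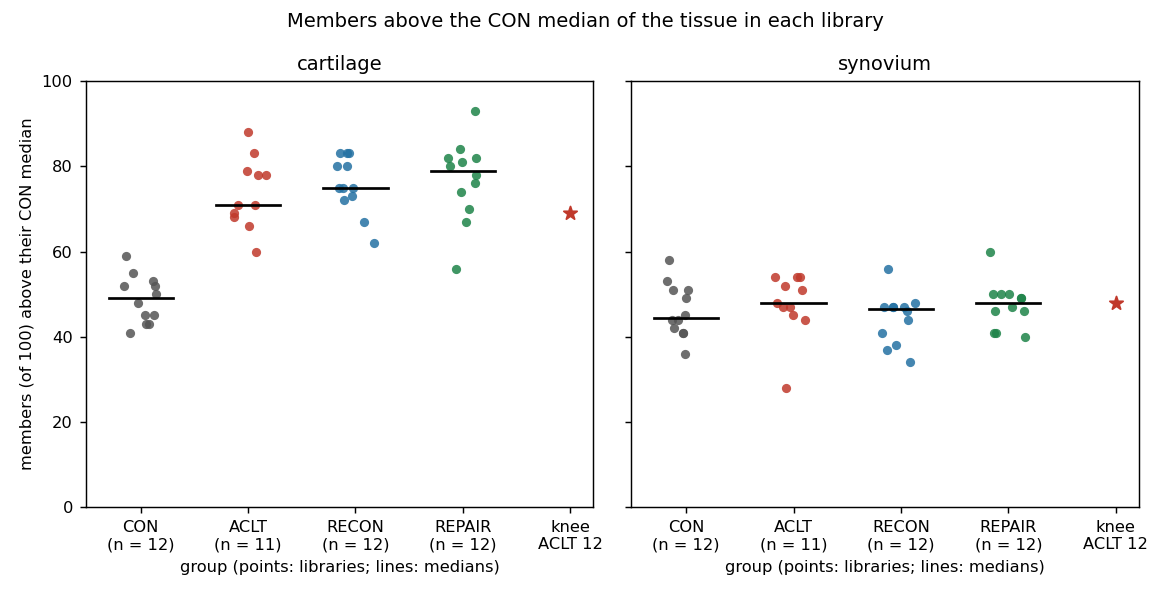
Number of the 100 members above the CON median of the tissue in each library, for CON (n = 12), ACLT (n = 11), RECON (n = 12), REPAIR (n = 12) and, as a star, knee ACLT 12; points are libraries and lines group medians. The rule used all libraries but the star, which stands at 69 in cartilage and 48 in synovium.

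In 12 animals both knees were sequenced, and each operated knee could be set beside its own control knee. The median steady member was higher in the operated knee in 10 of 12 animals, and 28 of 52 steady members were higher in at least 10. For the switching members the median was 7 animals and 2 of 48 reached 10. Of the other transcripts that met the conditions 2.28% reached 10. ENSSSCT00000004890.5 was higher in the operated knee in 12 of 12 animals and ENSSSCT00000099841.1 in 11, while ENSSSCT00000072890.2 was higher in 5. ENSSSCT00000023744.4 was higher in 1 of 12, and its fitted difference of treated minus CON cartilage was -0.12 ± 0.34 (SE). These are libraries that the rule had used.

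The members did not vary as 1 module. Over the 35 treated cartilage libraries, with each treatment centred on its mean, the Spearman correlation between 2 members had a median of 0.038, against 0.144 between any 2 of 14295 transcripts with a treated median of 5 CPM or more. The steady members had a median of 0.098 and the switching members 0.011. The transcripts closest in pattern to ENSSSCT00000072890.2 were ENSSSCT00000039046.3 (0.73), ENSSSCT00000074707.2 (0.68), ENSSSCT00000064631.3 (0.67), ENSSSCT00000014493.5 (0.52) and ENSSSCT00000071911.1 (0.44). The closest pairs were ENSSSCT00000003046.4 with ENSSSCT00000104823.1 (0.98) and ENSSSCT00000030128.3 with ENSSSCT00000057586.3 (0.96), which divide reads with each other, and ENSSSCT00000032138.4 with ENSSSCT00000037131.3 (0.95), for which no shared set was found.

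Joined at correlations over 0.7, 20 members formed 5 groups. The largest held 8 members: ENSSSCT00000002281.4, ENSSSCT00000019141.5, ENSSSCT00000019510.5, ENSSSCT00000029966.3, ENSSSCT00000055973.3, ENSSSCT00000058660.3, ENSSSCT00000063881.3 and ENSSSCT00000093324.1. Their mean level followed the summed synovium-restricted level of the library, with a Spearman correlation of 0.93 over the 35 treated cartilage libraries, both values coming from the same libraries. The mean log2(CPM + 1) of the 8 ran from 2.20 to 3.85 in CON cartilage, from 1.86 to 5.68 in treated cartilage and from 5.78 to 6.86 in CON synovium. Without the 16 treated libraries above the highest CON library in synovium-restricted level, the median cartilage difference of the 8 fell from 0.90 to 0.14, and 2 of the 8 stayed at 0.5 or more. 

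**Figure D5:**
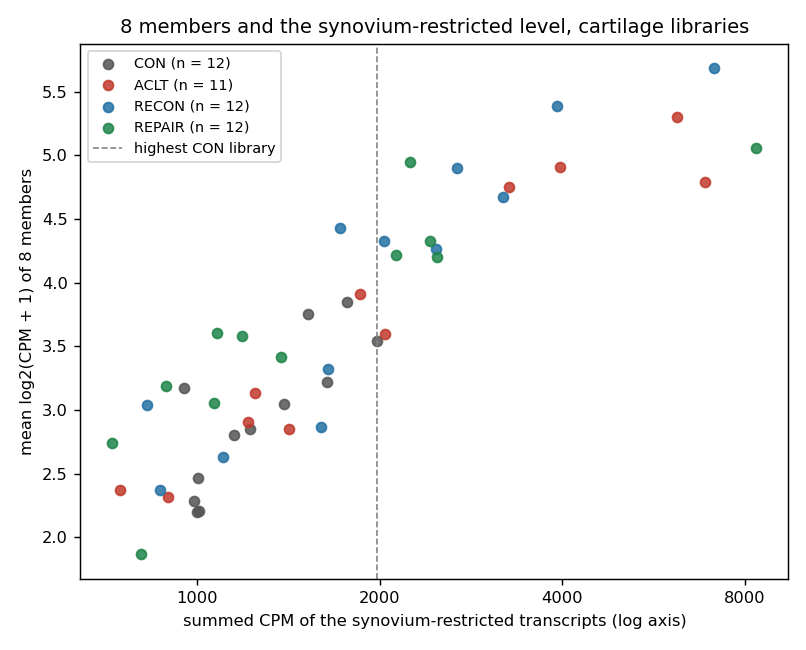
Mean log2(CPM + 1) of the 8 members that varied together against the summed CPM of the synovium-restricted transcripts (log axis) in the 47 cartilage libraries: CON (n = 12), ACLT (n = 11), RECON (n = 12) and REPAIR (n = 12). The dashed line marks the highest CON library at 1979 CPM; CON and treated libraries to its left overlap, and the highest values of the 8 members lie to its right.

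Most members stayed above CON when these 16 libraries were left out. Over the remaining 19 treated libraries (6 ACLT, 6 RECON and 7 REPAIR) the cartilage difference was above 0 in 93 of 100 members and at least 0.5 in 80, with a median of 0.71. Of the 11687 other transcripts that met the conditions, 4845 were above 0 and 56 at 0.5 or more. The rule had chosen the members on these 19 libraries and the CON median, among others, so these counts are a description of the choice. ENSSSCT00000003046.4 went from 1.88 to 1.56, ENSSSCT00000104823.1 from 1.65 to 1.31 and ENSSSCT00000016195.5 from 1.71 to 1.77. In the fit, 4 members were then called higher in treated than in CON cartilage in place of 11 (0.131% of all transcripts called higher), and all 4 were among the 11: ENSSSCT00000004890.5, ENSSSCT00000015036.5, ENSSSCT00000030128.3 and ENSSSCT00000099841.1. Over all 35 treated libraries, 15 members correlated with the synovium-restricted level at over 0.5, against 4.51% of the 14295 transcripts, and 13 of the 15 were steady members. How far that level accounts for the gain of the members was not tested.

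The second group held ENSSSCT00000016277.5, ENSSSCT00000032138.4, ENSSSCT00000037131.3 and ENSSSCT00000079260.1, with a correlation of 0.69 with the same level. The third held ENSSSCT00000039046.3, ENSSSCT00000064631.3 and ENSSSCT00000072890.2 (0.15), the fourth ENSSSCT00000030128.3, ENSSSCT00000057586.3 and ENSSSCT00000073564.2 (-0.024) and the fifth ENSSSCT00000003046.4 and ENSSSCT00000104823.1 (0.51). The pair of the fifth group was at 2.50 to 6.80 on the log2(CPM + 1) scale in CON cartilage, 2.66 to 9.80 in treated cartilage and 0.15 to 0.86 in CON synovium, so no CON synovium library reached the lowest cartilage library.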

How the data were processed

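RNA from articular cartilage and synovium was sequenced after ribosomal RNA depletion as paired reads. The authors quantified it with Salmon 1.8.0 against Sscrofa11.1, with FastQC 0.11.9 and MultiQC 1.12 as quality checks and R 4.2.1 and DESeq2 for their own tests. Each deposited file gives, per transcript, an estimated count (not whole where reads were divided), TPM and a length and effective length. CPM was computed here from the deposited estimated counts and the library's total, and TPM was used only to compare levels between transcripts. 

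The members and all lists were chosen with earlier results of these data known. Tests were run on counts rounded to whole numbers with edgeR 4.0.16 in R 4.3.3 (filterByExpr with a minimum count of 10, TMM, glmQLFit and glmQLFTest, 8 groups of tissue and treatment in 1 fit of 94 libraries), with Benjamini-Hochberg adjustment over 30447 transcripts and a threshold of 0.05. Alternatives were DESeq2 1.42.0, its size factors, a looser filter (transcripts above 0 in 2 or more libraries), all 96 libraries, RNA integrity as a covariate, an offset for effective length, 1 tissue alone and blocks by knee, animal or number. Python 3.11.15 served for the rest. Simulated data for REPAIR against RECON in cartilage gave 88 calls among the unchanged of 30447 transcripts, 79 of them with a dispersion over 5 and 7 among the 16283 at a mean of 5 CPM or more. Members were named by 8 rules: the 12 highest differences, the 5 highest TPM, up to 5 per tested comparison that passes, the 5 with most treated libraries above CON, the 5 highest in CON synovium, the transcripts at the limit, the 5 most like the first, and up to 5 that share reads with 1 other. Members outside these rules are said to be picked later, or come with a count.

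Cartilage and synovium of the same number came from the same knee, and 12 animals gave both a CON and an operated knee, according to the sample list of the study. The correlation of deviations from the group means had a mean of 0.069 over 47 knees (-0.064 to 0.24) and of 0.15 over the cartilage of the 12 animals (-0.049 to 0.27). No 2 libraries of a group were alike within counting noise (lowest chi-square per degree of freedom 17.1). Libraries are 1 per knee and tissue. Intervals from counts were not needed, since groups of 11 or 12 knees gave the error. ACLT 12 was left out of the rule and fits because the study does not list it. The gene lists and marker genes were not analysed here, as no table used here pairs the transcripts with genes.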

Additional observations from a re-analysis of the deposited data

Results flagged for a closer look

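In 6 members the change after surgery (the 3 treatments together against CON) was not the same in both tissues. It was tested by the tissue by surgery term of the edgeR fit, which 8.38% of all transcripts passed. The share of members was thus below that of all transcripts. The term, cartilage minus synovium on the log2 scale, was 1.86 for ENSSSCT00000099841.1, 1.04 for ENSSSCT00000009890.4, 1.03 for ENSSSCT00000079260.1, 0.95 for ENSSSCT00000016277.5 and 0.75 for ENSSSCT00000004890.5. It was -4.83 for ENSSSCT00000046130.3, which was at 0 in 11 of 12 CON synovium libraries and in 21 of 35 treated ones. The rule chose the members on these same differences, so the values describe the choice. Without the 16 treated cartilage libraries of high synovium-restricted level, 2 of the 6 passed, ENSSSCT00000099841.1 and ENSSSCT00000004890.5, where 7.68% of all transcripts passed.

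Knee ACLT 12 was used by no comparison. In its cartilage 69 of the 100 members were above the CON median. The rule used that CON median and chose members for which it was low, and the library stood apart in effective length, so nothing is read from the count.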

How the results depend on the processing

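Across 16 results, 123 alternative values were computed. Of these 95 stayed within 1.5 times of the main value, and 28 moved. A count of 0 that stayed at 0 is among the 95, as for most values of the comparisons between treatments. Of the 100 members, 41 stayed with means, 57 with TPM and 63 without the 16 treated cartilage libraries of high synovium-restricted level, an alternative chosen after seeing the data. Members called against CON moved in cartilage and in the tissue difference. DESeq2 called 13 in RECON (380 of 30447 transcripts called higher), 15 in REPAIR (238 of 29856) and 17 in the pooled comparison (398 of 29856). It called 10 for the tissue difference, where 3141 of 28676 transcripts passed in either direction. In synovium it called 1 each for RECON against ACLT (0.338% of all transcripts) and REPAIR against ACLT (0.322%). Cartilage libraries alone gave 0 in ACLT, 3 in RECON, 4 in REPAIR and 4 pooled. Of all transcripts 0%, 0.0624%, 0.0657% and 0.112% were then called higher. Without the 16 libraries the counts were 0, 0, 4 and 4 (0.00657%, 0.0427%, 0.0591% and 0.131% of all transcripts called higher). For the tissue difference the count was 2 (7.68% of all transcripts). For the pairing of both knees of an animal, the replicate block called 2 members in cartilage and 3 in synovium. Of 30447 transcripts 3 and 1355 were then called higher. Across treatments equal numbers mark no shared animal. The replicate block by number called 0 in ACLT, 1 in RECON, 0 in REPAIR and 4 pooled in cartilage. Of 30447 transcripts 0, 4, 0 and 18 were then called higher. The block by number changed no call of a member in the 6 comparisons between treatments, where 0 members were called with it as without it. With it 0 of all transcripts were called there. With each knee as a block 6 members passed for the tissue difference (7.7% of all transcripts). In ACLT 12 cartilage, 12 members were above the highest CON library where 69 were above the CON median. Members sharing reads numbered 0 by the strict rule, and 50, 49 with a tolerance of 0.002 and 66 at 25% of libraries by the looser one. The causes of these shifts were not tested. The reduced fits also held fewer libraries. A level of 5 CPM, the lowest treated median that the rule allowed, is 45 to 110 reads in the cartilage libraries. Whether depth limits the calls of the lowest members was not tested.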
